A study of Mus musculus with 6 samples.

Results

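Ubiquitin conjugating enzymes, ubiquitin ligases and ubiquitin proteases were followed in TM4 cells, an immortalized mouse line of Sertoli origin, after siRNA against Gata4. Sertoli cells are the somatic cells that support germ cells in the testis tubule, and Gata4 is a zinc finger transcription factor of gonad and heart. The members were all genes of the authors' deposited table of differentially expressed probes whose symbol begins with Ube, Ubr, Usp, Fbxo, Fbxl, Fbxw, Rnf, Trim or Otud. That gave 37 genes on 41 probes, out of 2029 genes or loci on 2415 probes in that table and 45269 probes on the array. No Ubr gene was listed. The authors had called these genes on the same 6 arrays, so every difference below describes how the chosen genes moved and is no independent evidence that they moved.

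Both groups were transiently transfected with Lipofectamine RNAiMAX at a final siRNA concentration of 0.1 µM. The 3 Gata4 siRNA samples received a pool of 4 siRNAs, and the 3 NT siRNA samples received a single non-targeting control siRNA. Each sample was read on its own Illumina MouseWG-6 version 2.0 array, as a background-subtracted intensity per probe. The labels do not give the time after transfection or say that replicates were separate cultures, so the spread between samples may be technical. The siRNA sequences are shown because they are what sets the groups apart by design.
Gata4 pool siRNA 1: agagaauagcuucgaacca
Gata4 pool siRNA 2: ggauauggguguuccgggu
Gata4 pool siRNA 3: cugaauaaaucuaagacgc
Gata4 pool siRNA 4: ggacauaaucaccgcguaa
non-targeting siRNA: ugguuuacaugucgacuaa

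Ubiquitin is joined to proteins by a relay. An E1 enzyme activates it, an E2 enzyme carries it, and an E3 ligase brings the E2 to the substrate. RING, TRIM and HECT proteins are ligases in their own right, whereas F-box proteins are the interchangeable substrate receptors of cullin-based SCF ligases. Ubiquitin proteases of the USP and OTU families take the mark off again. Depending on how the chains are linked, the mark sends a protein to the proteasome or alters its traffic, its signalling or its place on chromatin. In the testis, ubiquitin enzymes are known for their part in the turnover of histones and organelles while sperm form.

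Some facts of the whole series bear on every value. The median intensity was 6.7 to 6.8 on all 6 arrays. The deposited arrays already shared nearly the same distribution of values, so equal medians are no check on them. Pearson's r across the 17740 probes tested was 0.9872 to 0.9932 within a group and 0.9779 to 0.9869 between groups. No probe carries the name Gata4 in the tables used, so its knockdown is not checked here. Of 20 Sertoli markers 3 were named, of which Sox9 rose by 0.59 ± 0.11, while Inhbb fell by 0.53 ± 0.12 and Tjp1 by 0.67 ± 0.16 (log2 fold change ± SE). The other 17 are not named here, so the line's identity was checked by those 3 genes only. Of 8 smooth muscle and peritubular myoid markers 4 were named (Acta2, Actg2, Mylk and Tagln), and their summed intensity was 18912 to 21318 on Gata4 siRNA arrays, against 12757 to 14165 on NT siRNA arrays. The 3 Sertoli genes (Sox9, Inhbb and Tjp1) summed to 2822 to 3012 on Gata4 siRNA arrays, against 2946 to 3343 on NT siRNA arrays. Of 5 macrophage markers only Cd14 was named, at 716.0 to 781.9 on Gata4 siRNA arrays and 520.2 to 619.0 on NT siRNA arrays, and no Leydig, germ cell or endothelial marker was named. The part of any of these markers in the results below was not tested. In bulk RNA, fewer cells of a kind and less RNA per cell cannot be told apart.

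The ubiquitin genes did not move one way. Of the 37 members 18 had a higher mean in Gata4 siRNA cells and 19 a lower one. By deposited symbol, the 2 Otud genes were both higher, 5 of 8 Usp genes were higher, and 6 of 9 Fbxo, Fbxl or Fbxw genes were lower. Sizes were modest: the median size of the log2 fold change was 0.54, with a range from 0.28 for Usp39 to 1.01 for Otud7b. Only Otud7b exceeded a doubling of the mean intensity, at 2.13 times on the probe under its symbol. A brighter probe with the same gene number gave 1.21 times. The signed median of -0.29 is simply the value of Ube2a, the member in the middle of a split list, beside 0.01 over all probes tested. Over the 1979 other genes of the authors' table that were tested the median was 0.27.

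All 37 members passed the filter on dim values, which asked for an intensity above the noise floor of 17.1 on at least 3 arrays. In limma's fit over all 17740 probes, 10 members rose, 10 fell and 17 did not pass at an adjusted p under 0.05. Over all probes tested 8.78% passed, 4.07% higher and 4.71% lower. The 1979 other genes of the authors' table that were tested passed in 55.7% of cases and the members in 54.1%. The 3 Gata4 siRNA arrays did not overlap the 3 NT siRNA arrays for any of the 37, beside 33.2% of all probes tested. Since the authors' call on these arrays chose the members, nothing is read from these counts.

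The number of calls changed when 1 array was left out, which also leaves fewer arrays to the fit. Without Gata4 siRNA array 1, limma called 1 member higher and 0 lower (15 and 18 at an unadjusted p under 0.05), and without Gata4 siRNA array 2 it called 1 and 0 (17 and 17 unadjusted). Without Gata4 siRNA array 3 the counts were 6 higher and 7 lower (18 and 18 unadjusted). They were 3 and 1 without NT siRNA array 1 (14 and 18 unadjusted) and 5 and 2 without NT siRNA array 2 (17 and 17 unadjusted). Without NT siRNA array 3 they were 8 and 11 (16 and 19 unadjusted). Otud7b passed in all 6 of these fits, on the probe under its symbol. Rnf213 and Trim56 passed in 4, and Trim21, Ube2j1, Rnf126 and Fbxl15 in 3. Ube2g2 and Ube2cbp passed in none of the 6, although both pass with all arrays. The sign of a member could not turn in these fits, since its groups do not overlap.

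**Figure D1:**
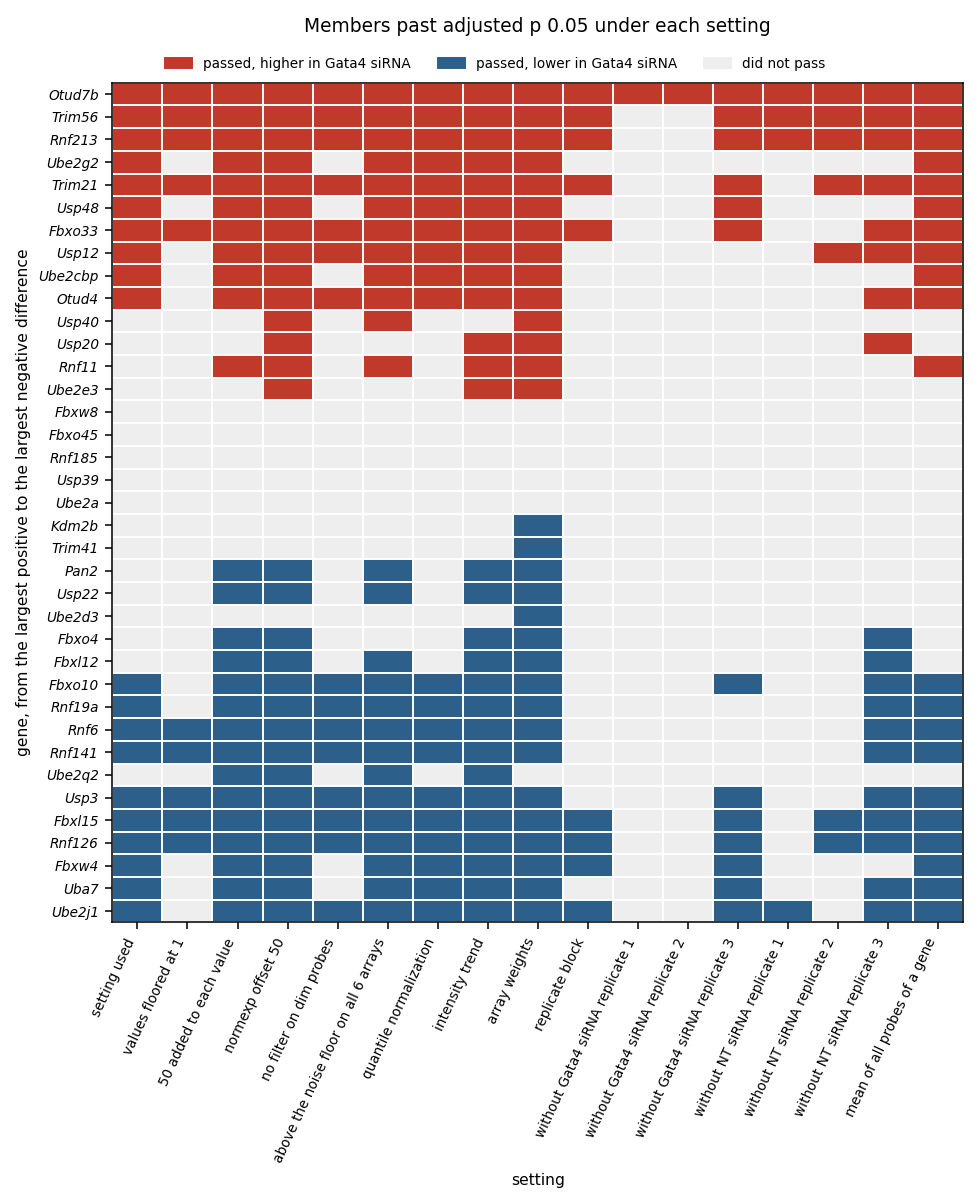
Each row is 1 of the 37 members, from the largest positive to the largest negative difference, and each column a setting of the fit, with red for a member past an adjusted p of 0.05 and higher in Gata4 siRNA cells, blue for past it and lower, and grey for not past it. Otud7b is red in every column, and the columns without Gata4 siRNA array 1 or array 2 are otherwise grey.

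**Figure D2:**
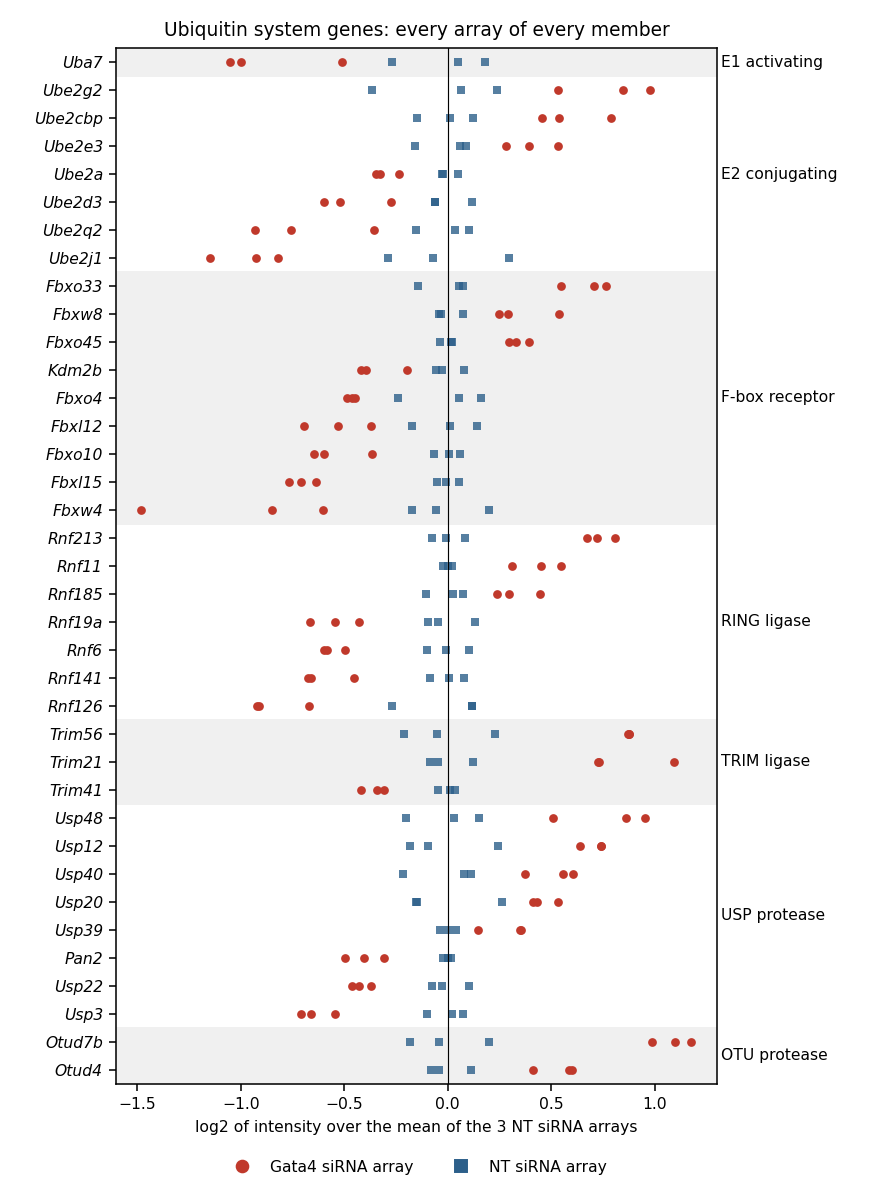
Each row is 1 of the 37 genes and each point 1 array, placed by the log2 of its intensity over the mean of the 3 NT siRNA arrays, with red circles for Gata4 siRNA and blue squares for NT siRNA. In every row the 3 red points lie on 1 side of the 3 blue ones, 18 rows to the right and 19 to the left.

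Activating and conjugating enzymes went both ways, with the largest falls in Ube2j1 and Uba7. Ube2j1 is an E2 anchored in the endoplasmic reticulum membrane that serves the disposal of misfolded proteins there, and mice without it have defective spermatids. Uba7, listed under its older symbol Ube1l, is the E1 of the ubiquitin-like interferon product ISG15. On the rising side stood Ube2g2, another E2 of the same disposal route, and Ube2cbp, which despite its symbol is a ligase that binds an E2.

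Ube2j1 read 50.7, 59.0 and 63.5 intensity units on the Gata4 siRNA arrays, against 91.9, 107.0 and 137.9 on the NT siRNA arrays. Uba7 read 101.6, 97.9 and 142.4 on Gata4 siRNA arrays, against 230.3, 210.4 and 168.6 on NT siRNA arrays. The groups were apart in both genes, with the nearest arrays at 63.5 against 91.9 for Ube2j1 and at 142.4 against 168.6 for Uba7. Ube2j1 fell by 0.79 ± 0.16 and Uba7 fell by 0.76 ± 0.17 on the log2 scale (± SE, with 3 arrays in each group), the form used for all fold changes below.

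Ube2g2 was at 112.1, 152.2 and 139.0 on Gata4 siRNA arrays, against 80.8, 91.4 and 60.0 on NT siRNA arrays, and rose by 0.69 ± 0.17. For Ube2cbp the Gata4 siRNA arrays gave 365.6, 308.0 and 290.8 and the NT siRNA arrays 213.7, 230.9 and 191.1, a rise of 0.56 ± 0.13. So the E2 enzymes of the endoplasmic reticulum, Ube2j1 and Ube2g2, moved in opposite directions.

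The remaining E2 enzymes did not pass. Ube2q2 had 80.0, 105.8 and 71.1 units on Gata4 siRNA arrays, against 138.8, 121.7 and 145.6 on NT siRNA arrays (-0.59 ± 0.15). Ube2e3, an E2 imported into the nucleus, had 1439.4, 1310.5 and 1212.6 on Gata4 siRNA arrays, against 892.1, 1037.4 and 1060.1 on NT siRNA arrays (0.40 ± 0.13). Ube2d3, an E2 that works with a wide range of ligases, averaged 197 ± 24 in Gata4 siRNA cells and 271 ± 20 in NT siRNA cells (SD, n = 3 each). Ube2a, a Rad6 homologue that ubiquitylates histone H2B and the DNA clamp PCNA, averaged 339 ± 14 in Gata4 siRNA cells and 417 ± 13 in NT siRNA cells (SD, n = 3 each), the smallest difference of the class.

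Of the 9 F-box genes 6 were lower and 3 higher. Of these 9, 3 fell, 1 rose and 5 did not reach the threshold, beside 55.7% passing among the authors' other genes. Their median log2 fold change of -0.45 is the value of Fbxo4, which did not pass. The genes were chosen by this comparison, so no lean of the class is read from the split. Fbxl15, whose product directs the ligase Smurf1 to destruction, was lower on both of its probes, of which the brighter one passed. Fbxw4, the gene altered in the limb mutant Dactylaplasia of mice, and Fbxo10, a receptor for the survival factor Bcl2, fell as well. Fbxo33, known from human cells as a receptor for the Y-box protein YB-1, was the only one of these 9 genes that rose and passed.

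The brighter Fbxl15 probe read 501.4, 482.4 and 528.5 on Gata4 siRNA arrays, against 851.5, 816.6 and 792.6 on NT siRNA arrays. Its arrays were tightly grouped, with an SD of 23.2 in Gata4 siRNA cells and 29.6 in NT siRNA cells, and it fell by 0.69 ± 0.11. Its dimmer probe gave 300.3, 343.9 and 403.8 on Gata4 siRNA arrays, against 586.2, 466.5 and 475.5 on NT siRNA arrays, at -0.53 ± 0.15.

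Fbxw4 was dim. Its brighter probe had 29.1, 45.1 and 53.6 on Gata4 siRNA arrays, against 78.3, 72.2 and 93.4 on NT siRNA arrays, and fell by 0.75 ± 0.18. Its dimmer probe had 13.9, 3.2 and 7.8 on Gata4 siRNA arrays, all below the noise floor, against 48.1, 43.4 and 24.6 on NT siRNA arrays. That probe therefore gives only a bound, at least 1.59-fold lower in Gata4 siRNA cells, taken between the NT siRNA mean and, on each Gata4 siRNA array, the higher of the dimmest value above the floor and the probe's own. Log values carry an added offset of 16 units, so the folds of all dim genes are understated, and those of genes this dim the most. The order of the largest differences depends on it. With values floored at 1 instead, Fbxw4 was at -0.97 and Ube2j1 at -0.95.

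Fbxo10 was at 930.1, 897.4 and 1091.1 on Gata4 siRNA arrays, against 1462.1, 1410.8 and 1343.3 on NT siRNA arrays, and fell by 0.53 ± 0.12. Fbxo33 was at 537.2, 516.4 and 462.5 on Gata4 siRNA arrays, against 333.5, 328.8 and 286.8 on NT siRNA arrays, and rose by 0.65 ± 0.12. Both were separated by more than the spread within either group.

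Among the F-box genes that did not pass, Fbxl12 was at -0.51 ± 0.14 and Fbxo4, a receptor for cyclin D1, at -0.45 ± 0.13. Kdm2b, listed under its older symbol Fbxl10, is a histone demethylase that also carries an F-box and brings Polycomb complexes to CpG islands. It averaged 837 ± 73 in Gata4 siRNA cells and 1056 ± 52 in NT siRNA cells (SD, n = 3 each), at -0.33 ± 0.12. Higher, again without passing, were Fbxw8, which pairs with the cullin Cul7, at 0.35 ± 0.13, and Fbxo45, which works with the ligase Mycbp2, at 0.33 ± 0.11.

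RING ligases split into 4 falls, 1 rise and 2 genes that did not pass. The largest fall was in Rnf126, which clears mislocalized hydrophobic proteins together with Bag6. Rnf6, which ubiquitylates the androgen receptor in human prostate cancer cells, Rnf141, and Rnf19a, a RING-between-RING ligase also called dorfin, fell by similar amounts. The rise was in Rnf213, a very large ATPase and ligase induced by interferon and known in humans as the susceptibility gene for moyamoya disease.

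Rnf126 read 105.0, 105.6 and 124.9 on Gata4 siRNA arrays, against 215.7, 164.8 and 215.5 on NT siRNA arrays, and fell by 0.74 ± 0.14. A separate probe, deposited under a predicted locus but with the gene number of Rnf126, gave 451.3, 549.8 and 573.0 on Gata4 siRNA arrays, against 778.2, 726.6 and 781.2 on NT siRNA arrays. It fell by 0.53 ± 0.13. That probe is in the authors' deposited table too, so it had also been called on these arrays.

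Rnf6 was at 980.4, 911.5 and 922.7 on Gata4 siRNA arrays, against 1372.0, 1289.4 and 1481.0 on NT siRNA arrays, a fall of 0.55 ± 0.12. Rnf141 was at 205.9, 237.8 and 203.8 on Gata4 siRNA arrays, against 306.7, 326.9 and 343.6 on NT siRNA arrays, a fall of 0.56 ± 0.12. Rnf19a was at 4144.9, 3516.3 and 3822.4 on Gata4 siRNA arrays, against 5404.9, 6119.4 and 5220.9 on NT siRNA arrays, a fall of 0.54 ± 0.13. The 3 genes differed by nearly the same amount, with no overlap of the groups in any of them.

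Rnf213 gave 2325.7, 2120.7 and 2193.3 on Gata4 siRNA arrays, against 1321.5, 1259.1 and 1406.0 on NT siRNA arrays. It rose by 0.73 ± 0.11, to 1.67 times the NT siRNA mean, and its lowest Gata4 siRNA array, at 2120.7, stood far above its highest NT siRNA array, at 1406.0. Rnf185, a membrane ligase of endoplasmic reticulum protein disposal, averaged 1323 ± 100.3 in Gata4 siRNA cells and 1052 ± 65 in NT siRNA cells (SD, n = 3 each), and did not pass.

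Rnf11, a small RING protein that works with Itch, Tax1bp1 and the NF-kB brake Tnfaip3, was read by 3 probes, all higher in Gata4 siRNA cells. The brightest gave 5792.8, 5427.9 and 4920.0 on Gata4 siRNA arrays, against 3970.2, 3910.3 and 4021.4 on NT siRNA arrays (0.43 ± 0.12), and did not pass. The dimmest gave 586.2, 545.9 and 508.3 on Gata4 siRNA arrays, against 320.7, 337.1 and 311.8 on NT siRNA arrays, and rose by 0.73 ± 0.12. The third was at 0.34 ± 0.13. Probes of the same gene therefore differed in size as much as many of the members did, and which probe stands for Rnf11 decides whether it passes.

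**Figure D3:**
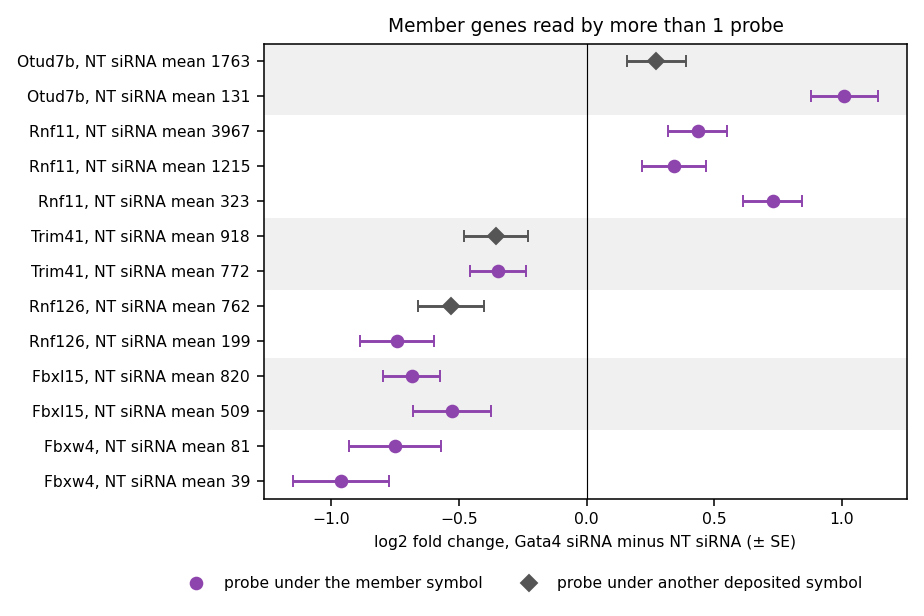
Log2 fold change with its SE (horizontal axis, Gata4 siRNA minus NT siRNA) for the 6 member genes with more than 1 probe, 1 row per probe, labelled with its mean intensity on NT siRNA arrays. Probes of a gene share their sign in all 6 genes, and Otud7b shows the widest gap, 1.01 against 0.27. The lower Fbxw4 point has only a bound, since its Gata4 siRNA arrays are below the noise floor.

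Of the 3 TRIM ligases, Trim56 and Trim21 rose and Trim41 did not pass. Trim56 is a ligase induced by interferon that acts on the cytosolic DNA sensing pathway, and Trim21 is the cytosolic receptor for antibody-coated virus. Trim56 read 133.2, 133.3 and 133.1 on Gata4 siRNA arrays, against 85.2, 62.8 and 70.0 on NT siRNA arrays, and rose by 0.76 ± 0.13. The near identity of its Gata4 siRNA arrays, with an SD of 0.1, stands beside an SD of 11.4 on the NT siRNA arrays. Trim21 read 78.3, 101.0 and 78.6 on Gata4 siRNA arrays, against 45.9, 51.5 and 44.7 on NT siRNA arrays, and rose by 0.68 ± 0.13. Neither pair of groups overlapped.

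Trim41 was lower, without passing. It was at 576.9, 608.1 and 623.7 on Gata4 siRNA arrays, against 789.4, 747.4 and 777.7 on NT siRNA arrays, at -0.35 ± 0.11. A second probe with its gene number, deposited under a predicted locus, was at -0.35 ± 0.13.

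Among the members, Rnf213, Trim56, Trim21 and Uba7 are known as interferon-induced genes, a grouping made after their values were seen. The first 3 rose, by 0.73, 0.76 and 0.68, while Uba7 fell by 0.76. Genes counted together as interferon-induced thus stood on both sides of 0, with the ligases higher and the ISG15-activating enzyme lower.

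Proteases of the USP family were higher in 5 of 8 genes, of which 2 passed. Usp48, a nuclear protease, and Usp12, which depends on the cofactor Wdr48, rose. Usp3, which removes ubiquitin from histone H2A, fell. The class also holds genes whose products cut no ubiquitin: Usp39 is a splicing factor without protease activity, and Pan2, listed under its older symbol Usp52, is the catalytic subunit of a deadenylase that trims poly(A) tails.

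Usp48 was at 138.1, 129.6 and 101.2 on Gata4 siRNA arrays, against 79.0, 62.0 and 72.7 on NT siRNA arrays, and rose by 0.67 ± 0.15. Usp12 was at 167.6, 167.3 and 156.2 on Gata4 siRNA arrays, against 88.3, 118.6 and 93.9 on NT siRNA arrays, and rose by 0.64 ± 0.13. Usp3 was at 886.7, 789.7 and 816.3 on Gata4 siRNA arrays, against 1310.5, 1358.4 and 1204.6 on NT siRNA arrays, and fell by 0.63 ± 0.12. The fall in Usp3 left its highest Gata4 siRNA array at 886.7, well under its lowest NT siRNA array at 1204.6.

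The other USP members did not pass. Usp39 gave 3970.2, 3959.8 and 3437.8 on Gata4 siRNA arrays, against 3103.3, 3186.6 and 3022.2 on NT siRNA arrays, the smallest difference of all members at 0.28 ± 0.12. Usp40 was at 0.46 ± 0.13 and Usp20, which binds the hypoxia regulator VHL in human cells, at 0.46 ± 0.14. NT siRNA array 3 was the high one for Usp20, at 554.0 against 416.1 and 416.8 on the other NT siRNA arrays. Lower were Usp22, the histone protease of the SAGA coactivator, at -0.41 ± 0.11, and Pan2 at -0.39 ± 0.11.

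The Otud genes gave the largest rise of all members, in Otud7b. Also called Cezanne, Otud7b prefers chains linked through lysine 11 of ubiquitin and restrains NF-kB signalling. It read 281.4, 260.0 and 296.6 on Gata4 siRNA arrays, against 127.7, 115.6 and 150.7 on NT siRNA arrays, and rose by 1.01 ± 0.13. A brighter probe with the same gene number, deposited under a clone name, gave 2290.6, 2049.5 and 2067.3 on Gata4 siRNA arrays, against 1717.4, 1857.5 and 1715.2 on NT siRNA arrays. At 0.27 ± 0.12 that probe did not pass, so the size of the rise, and its call, belong to the probe listed under the symbol.

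Otud4, known for a part in DNA alkylation repair, rose by 0.53 ± 0.12. It was at 2818.3, 2792.7 and 2469.6 on Gata4 siRNA arrays, against 1758.7, 1804.5 and 2009.1 on NT siRNA arrays. Of the 10 genes with a Usp or Otud symbol, Usp39 and Pan2 included, 7 were higher, 4 of them passing, and 3 were lower, 1 of them passing. Among 6 ubiquitin proteases of the authors' table without these symbols, 1 rose, 3 fell and 2 did not pass. Of the 19 F-box, RING and TRIM genes, 8 were higher, 4 of them passing, and 11 were lower, 7 of them passing. Whether proteases and ligases differ was not tested, since both sets were chosen by the comparison itself.

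**Figure D4:**
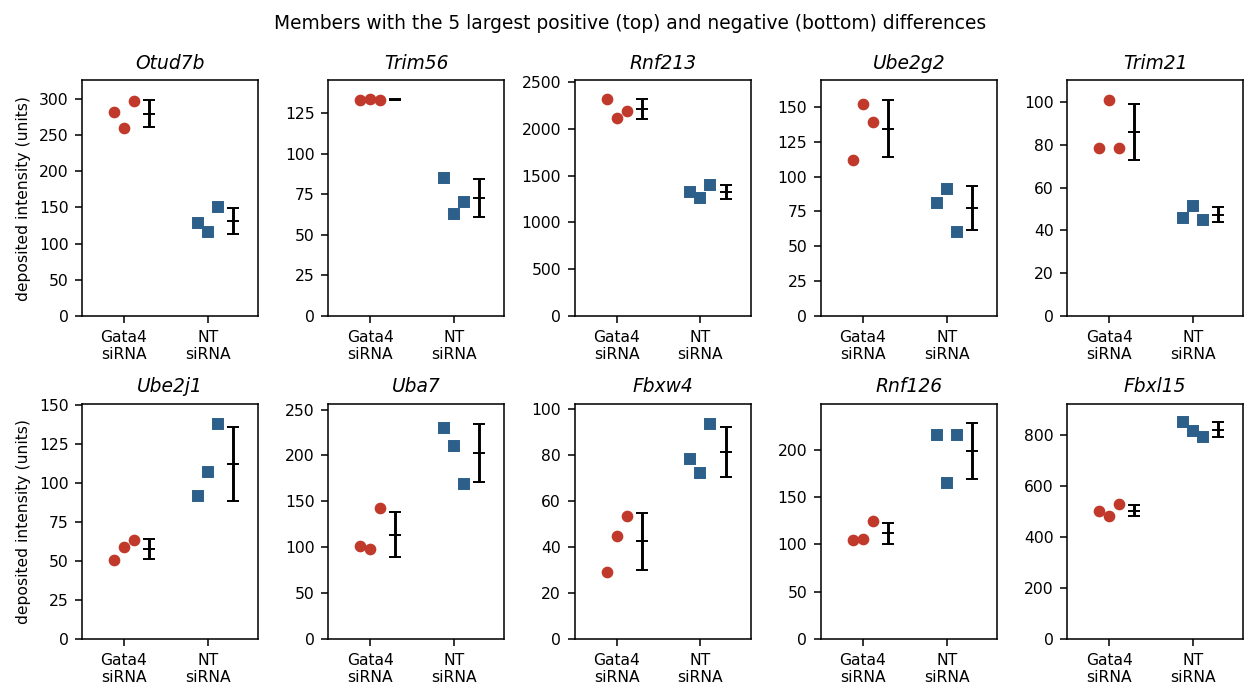
Deposited intensity (vertical axis from 0, in intensity units) on each Gata4 siRNA array (red circles, left) and NT siRNA array (blue squares, right) for the members with the 5 largest positive and the 5 largest negative log2 fold changes, with the mean and SD of the 3 arrays in black. Otud7b shows group means of 279 and 131, and Ube2j1 shows 57.7 and 112.

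Promoters were examined for letters that the choice of members did not use. RefSeq sequences of GRCm38.p6, from 250 bases before to 50 after each annotated start, were matched by gene number to 27 of the 37 members. Words known to bind GATA factors were searched, namely AGATAA or AGATAG, and likewise TGATAA or TGATAG, each on both strands. At least 1 of them occurred in the promoters of 3 of 27 members (11.1%), beside 29.5% of 17492 protein-coding genes and 33.0% of all 27025 genes in the table. Member promoters were richer in G and C, with a median of 64.0% over 39 windows against 56.3% for protein-coding genes, and the words searched are rich in A and T. A match is only a match of letters, and a window without one says nothing of Gata4 at these genes. The 3 promoters with matches are shown for the 250 bases before the start, with the matched words in capitals. They belong to Rnf213, which rose (chr11:119389849-119390098, plus strand), Rnf126, which fell (chr10:79766953-79767202, minus strand), and Fbxo4, which did not pass (chr15:3979574-3979823, minus strand).
Rnf213: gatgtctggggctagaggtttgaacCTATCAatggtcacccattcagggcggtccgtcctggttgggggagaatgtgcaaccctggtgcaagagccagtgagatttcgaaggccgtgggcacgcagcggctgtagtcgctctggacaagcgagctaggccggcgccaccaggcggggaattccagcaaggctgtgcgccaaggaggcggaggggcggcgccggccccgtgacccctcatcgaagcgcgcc
Rnf126: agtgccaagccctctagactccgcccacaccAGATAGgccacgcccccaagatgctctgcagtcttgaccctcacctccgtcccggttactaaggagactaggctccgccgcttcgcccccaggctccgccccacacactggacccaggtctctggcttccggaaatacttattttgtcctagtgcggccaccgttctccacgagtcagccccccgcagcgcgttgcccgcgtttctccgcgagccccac
Fbxo4: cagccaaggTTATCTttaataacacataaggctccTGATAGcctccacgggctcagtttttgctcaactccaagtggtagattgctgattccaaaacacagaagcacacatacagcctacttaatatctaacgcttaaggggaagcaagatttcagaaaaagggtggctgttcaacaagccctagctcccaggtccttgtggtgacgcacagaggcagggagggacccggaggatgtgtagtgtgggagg

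The matched words in these promoters all lie far from the start, beginning 225 bases before it in Rnf213, 219 in Rnf126, and 241 and 215 in Fbxo4. A second motif, the interferon response pattern of GAAA, then 2 bases of any kind, then GAAA again, on either strand, was searched after the values of the interferon-induced members were seen. It was found in 2 of 27 members (7.41%), Trim21 and Fbxl15, beside 3.94% of protein-coding genes in the table. Fbxl15, which fell, is not among those interferon-induced members. The windows of the others among them, Rnf213, Trim56 and Uba7, held no match. Trim21 holds overlapping copies just past its annotated start, within the 30 bases shown (chr7:102565447-102565476, minus strand), where the capitals mark the matched letters.
Trim21: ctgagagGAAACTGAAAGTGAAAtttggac

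The wider ubiquitin system was described from lists of 299 symbols, older names included, of which 43 were named in the authors' table and so had also been called there. The median log2 fold change of these 43 was 0.32, beside 0.27 over the 1979 tested genes of that table that are not members. Of the 43, 13 rose, 13 fell and 17 did not reach the threshold. The same background of 8.78% of all probes applies, and nothing is read from the count. Without Gata4 siRNA array 2 the counts were 2 higher and 3 lower, and without NT siRNA array 3 they were 9 and 12. They were 4 and 4 without Gata4 siRNA array 1, 8 and 8 without Gata4 siRNA array 3, 6 and 4 without NT siRNA array 1, and 7 and 5 without NT siRNA array 2.

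Other ligases and receptors held the largest differences, 20 of 106 symbols being named, with 6 rises and 8 falls. Traf2 and Traf6, RING proteins that relay signals from tumour necrosis factor and interleukin-1 receptors, moved apart. Traf2 gave 95.3, 144.8 and 93.3 on Gata4 siRNA arrays, against 7.7, 20.6 and 40.9 on NT siRNA arrays, where array 1 lay below the noise floor, and rose by 1.70 ± 0.27. Traf6 gave 85.2, 80.8 and 98.3 on Gata4 siRNA arrays, against 236.6, 191.3 and 181.9 on NT siRNA arrays, and fell by 1.07 ± 0.14. The suppressors of cytokine signalling, which are receptors of a cullin ligase, were lower in all 3 named genes. Socs2 fell by 0.95 ± 0.12, Socs7, dim and below the noise floor on Gata4 siRNA array 1, by 0.93 ± 0.19 and Socs3 by 0.57 ± 0.11. The HECT ligase Hectd2 rose by 1.00 ± 0.15, to 614 ± 60 intensity units in Gata4 siRNA cells, against 302 ± 52 in NT siRNA cells (SD, n = 3 each).

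In the core of the cullin ligases 6 of 41 symbols were named. Cyclin F, Ccnf, itself an F-box protein, rose by 0.79 ± 0.15, and the receptors Dcaf7 and Dtl of the Cul4 ligase rose by 0.78 ± 0.13 and 0.74 ± 0.14. Dtl was at 48.4, 64.6 and 55.6 on Gata4 siRNA arrays, against 23.0, 27.2 and 31.2 on NT siRNA arrays. Vhl, the receptor that marks hypoxia-inducible factors for destruction, fell by 0.60 ± 0.12. Rbx1, the RING subunit shared by most cullin ligases, had 6354.5, 6530.5 and 8394.0 on Gata4 siRNA arrays, against 10443.0, 9593.4 and 10063.1 on NT siRNA arrays, and did not pass (-0.51 ± 0.14). Gata4 siRNA array 3 was the one nearest the NT siRNA arrays for Rbx1.

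Proteases outside the Usp and Otud symbols went both ways, with 6 of 27 named. Ataxin-3, Atxn3, rose by 0.71 ± 0.12, while Tnfaip3, the NF-kB brake that partners Rnf11, fell by 0.77 ± 0.13, Josd2 fell by 0.67 ± 0.16 and Otub2 fell by 0.59 ± 0.14. Tnfaip3 was at 310.9, 248.8 and 297.5 on Gata4 siRNA arrays, against 476.5, 482.6 and 529.0 on NT siRNA arrays. Rnf11 and Tax1bp1 of the same complex were higher in Gata4 siRNA cells, at 0.43 ± 0.12 and 0.29 ± 0.12, without passing.

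Of 53 proteasome symbols 4 were named, all with a higher mean in Gata4 siRNA cells. Psmb8, a catalytic subunit of the immunoproteasome, rose by 0.65 ± 0.17, with 680.9, 776.2 and 694.0 on Gata4 siRNA arrays, against 499.2, 521.3 and 351.0 on NT siRNA arrays. The base ATPase Psmc5 and the lid subunit Psmd13 were at 0.35 ± 0.13 and 0.32 ± 0.12. Psmc3ip shares the prefix but is a factor of meiotic recombination, and was at 0.39 ± 0.11. Among ubiquitin-like modifiers and their enzymes, Urm1 rose by 0.55 ± 0.13 and the SUMO protease Senp1 by 0.67 ± 0.12. Of the anaphase-promoting complex, Anapc7 was at 0.37 ± 0.12 and its activator Fzr1 at -0.29 ± 0.11, and neither passed. Of the ubiquitin shuttles, Ubxn6 fell by 0.52 ± 0.13 and the autophagy receptor Nbr1 was at 0.44 ± 0.12.

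**Figure D5:**
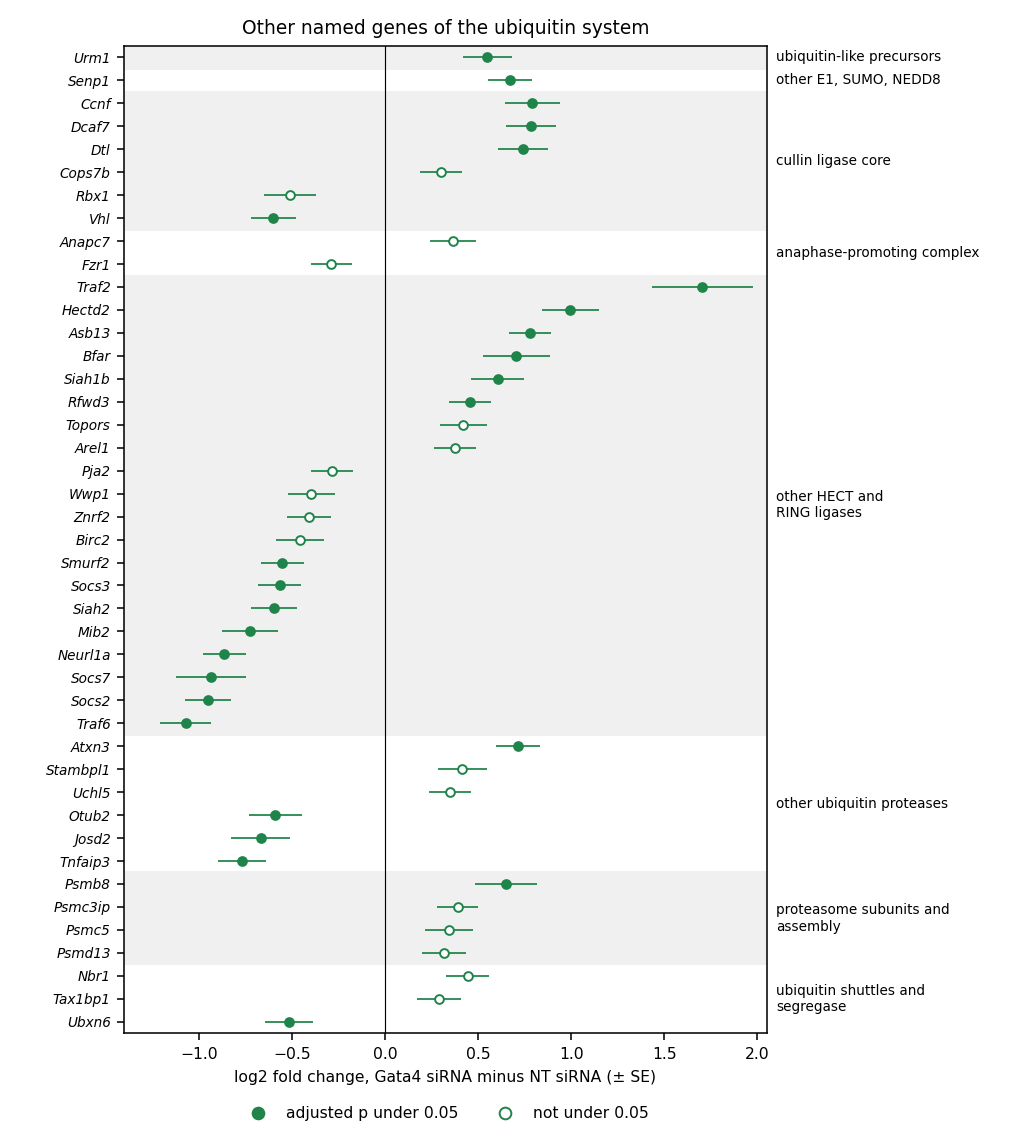
Log2 fold change with its SE (horizontal axis, Gata4 siRNA minus NT siRNA) for the 43 other named genes of the ubiquitin system, 1 row per gene in shaded blocks by list, with filled circles for an adjusted p under 0.05. Traf2 lies farthest right at 1.70 and Traf6 farthest left at -1.07, both among the other ligases.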

How the data were processed

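RNA of 6 samples was labelled with biotin and hybridized to Illumina MouseWG-6 version 2.0 BeadChips, per the labels' protocols. Groups follow the sample titles. The design text numbers the controls differently, and the passage is 12 in one label and 13 in the protocol. The deposited values are intensities on a linear scale, 37.1% of them below 0, so background had been subtracted. Per the submitters' processing notes GenomeStudio was used, and no version of it is stated there. Another 18 columns with names that fit no sample were left out. The authors' table gave names only, and its fold changes and p-values were not used.

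Log2 intensities were taken after normexp, whose background was set at mean 0 with an SD of 9.40 estimated from negative values, plus an offset of 16. The noise floor of 17.1 is the size that 95% of negative values did not exceed, and probes above it on 3 or more arrays were tested with limma 3.58.1 (lmFit, eBayes; R 4.3.3). Tests were two-sided, p-values were adjusted by Benjamini-Hochberg over 17740 probes, and the threshold was 0.05. The fit was tested on simulated data. The brightest probe under a member symbol stood for a gene. Of the 37 symbols 34 were current in RefSeq (GRCm38.p6) and 3 were updated by gene number. Members, lists and settings were chosen with earlier results of these data known. All members may be named, and values on each array are given for the 10 largest differences each way, the brightest gene of a class and genes with further probes. Of the wider lists 1 gene was left out of all counts and is not reported here. Figures were drawn with matplotlib 3.10.9.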

Additional observations from a re-analysis of the deposited data

How the results depend on the processing

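The calls varied with the setting. The sign stayed the same in all 592 values of 37 members under 16 alternative settings, which is no sign of stability, since members were chosen by this comparison and the groups of none overlap. The median log2 fold change of the members stayed between -0.30 and -0.27. Otud7b passed in all 16, and Fbxo45, Fbxw8, Rnf185, Ube2a and Usp39 passed in none. Against 10 members called higher, 10 called lower and 1558 probes called in all, values floored at 1 gave 5, 5 and 734, and a replicate block gave 5, 4 and 736. Quantile normalization gave 10, 10 and 1557. It changed almost nothing because the deposited arrays already had nearly the same distribution, so it is hardly an alternative. An intensity trend gave 2377 probes and array weights gave 3079, with 17 members called lower. Leaving out single arrays gave 1 to 8 members called higher, 0 to 11 called lower and 257 to 1602 probes. The 1602 probes were called without NT siRNA array 3, which had the lowest array weight, 0.38, against a highest of 1.97. Fits without an array also had fewer arrays, and the cause of these shifts was not tested. Deviations of same-numbered arrays correlated at -0.055, -0.088 and -0.011. No shared deviation was thus seen, which does not settle whether these samples were handled as pairs. With the brightest probe by gene number, chosen after seeing the data, 9 members were called higher and 10 lower, since Otud7b no longer passed. Intensities near the floor of 17.1 limit Fbxw4 most.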

Other observations

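Members whose products place or remove ubiquitin on histones went both ways, a grouping made after the values were seen and given without a test. Usp3, a histone H2A protease, was at -0.63 ± 0.12 and Usp22, the protease of the SAGA coactivator, at -0.41 ± 0.11 (log2 fold change ± SE, n = 3 per group). Kdm2b, which brings a Polycomb H2A ligase to CpG islands, was at -0.33 ± 0.12, and Ube2a, an E2 for histone H2B, at -0.29 ± 0.11. Of these only Usp3 passed. On the other side, Usp12, which removes ubiquitin from histones H2A and H2B, was at 0.64 ± 0.13 and passed, and Usp48, which removes ubiquitin from histone H2A at damaged DNA in human cells, was at 0.67 ± 0.15, and passed.

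Members of protein disposal at the endoplasmic reticulum were split, again in a grouping made after the values were seen. The membrane E2 Ube2j1 was at -0.79 ± 0.16, the E2 Ube2g2 at 0.69 ± 0.17 and the membrane ligase Rnf185 at 0.32 ± 0.12. On the gap between groups, Ube2j1 left its nearest arrays at 63.5 in Gata4 siRNA cells and 91.9 in NT siRNA cells, and Ube2g2 at 112.1 in Gata4 siRNA cells and 91.4 in NT siRNA cells.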
